A study of Danio rerio with 34 samples.

Results

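The RNA windows described here are stretches of 10 nt whose icSHAPE reactivity differed between neighbouring stages all the way from the fertilized zebrafish egg to the shield stage. They were selected on measured values. Each transcript was divided into disjoint windows of 10 nt from nucleotide 1, and a window was kept when, in each of the 5 intervals between adjacent wild-type stages, at least 8 nt had a reactivity at both stages, the mean difference was over 0.05 in size and the two-sided p of a paired t test over the nucleotides was under 0.05. This left 1169 of the 440957 windows that could be tested in all 5 intervals. They lay in 758 transcripts of 747 genes, out of 4099 transcripts of 3951 genes. The 6 wild-type profiles therefore chose the windows, and their levels at those stages are given as a description. The elavl1a morphant profiles, the RNA-seq and the position along the transcript took no part in the choice.

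In icSHAPE, the reagent NAI-N3 acylates flexible nucleotides in RNA, reverse transcription stops at the modified sites, and the stops in a library treated with DMSO are the background. A high reactivity marks a flexible and usually unpaired nucleotide, and a low one a nucleotide that is paired or otherwise held. The early zebrafish embryo lives on maternal mRNAs laid down in the egg. These are translated, bound by proteins, given longer poly(A) tails and cleared, while the embryo's own genome is switched on at the blastula stages. Elavl1a is a vertebrate member of the Elavl (Hu) family of RNA-binding proteins, which bind U-rich and AU-rich elements and are known for stabilizing mRNAs.

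All embryos were of the AB strain and all RNA was polyA-selected. Wild-type embryos were taken at 0 (fertilized egg), 0.4 (1-cell), 1 (4-cell), 2, 4 (sphere) and 6 (shield) hours post fertilization (h), and NAI-N3 and DMSO libraries gave 1 pooled reactivity profile per stage. elavl1a morphants, injected with an elavl1a morpholino at the 1-cell stage, gave 1 profile each at 4 and 6 h, pooled from 2 replicates per treatment. RNA-seq covered control embryos at 2, 4 and 6 h and elavl1a morphants at 4 and 6 h, with 2 libraries each. The labels do not say what the controls received, and the methods of the study list a control morpholino. No injection is stated for the wild-type embryos of the profiles, so that knockdown and injection cannot be told apart in the reactivities. A morpholino against the start codon blocks translation and need not lower the RNA, and the study describes slower development of the morphants, so that knockdown and developmental stage cannot be told apart at a given hour.

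Because each profile is 1 pool, no reactivity value below has a replicate error, and the 10 nt of a window are neighbours on 1 RNA and not replicates. The RNA-seq libraries held 61776396 to 104388477 reads. No library was left out. elavl1a RNA stood at 202 and 200 RPKM (reads scaled to transcript length and library size) in the 2 control libraries at 4 h and at 205 and 204 RPKM in the morphants. At 6 h it stood at 298 and 299 RPKM in controls and 343 and 342 RPKM in morphants, which for a translation-blocking morpholino is no check of the labels.

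Most of these windows followed the course of the whole set of transcripts, with larger steps. Their mean reactivity was 0.331 at 0 h, 0.482 at 0.4 h, 0.348 at 1 h, 0.264 at 2 h, 0.377 at 4 h and 0.392 at 6 h, with an SD over windows of 0.138 to 0.175. All windows tested in the 5 intervals averaged 0.297, 0.343, 0.280, 0.249, 0.294 and 0.290 at the same stages. The windows were thus most reactive in the 1-cell embryo and least at 2 h. The highest of the 6 levels fell at 0.4 h in 64.2% of them, against 48.6% of all windows tested, and the lowest at 2 h in 71.1%, against 42.5%. The median gap between a window's highest and lowest level was 0.276, beside 0.146 over all windows tested. From 0 to 6 h the median net difference was 0.0891 beside -0.0051 over all windows tested. A net rise over 0.05 was seen in 56.7% of the windows, against 26.9% of all windows tested. A net fall over 0.05 was seen in 23.6%, against 30.9%. In 19.7%, against 42.3%, the level at 6 h lay within 0.05 of that in the egg.

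**Figure D1:**
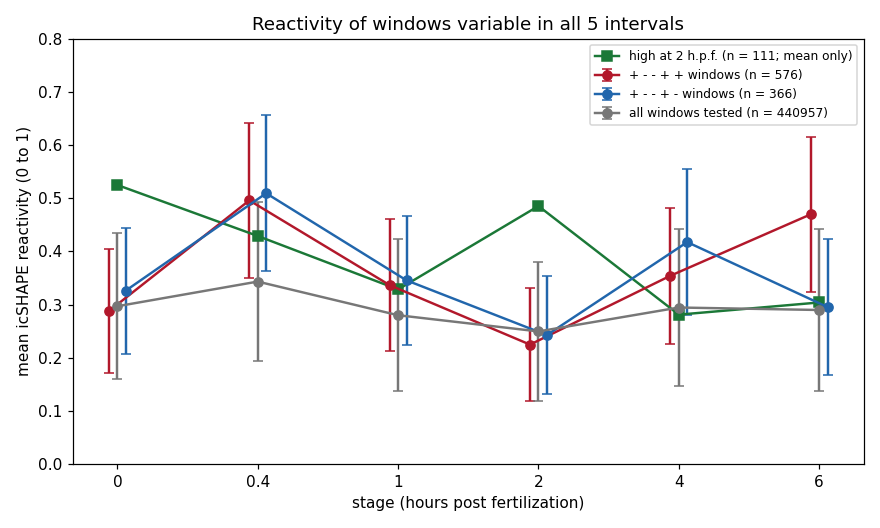
Mean icSHAPE reactivity (0 to 1) at the 6 wild-type stages (h) for the windows of the orders up, down, down, up, up (red) and up, down, down, up, down (blue), the 111 windows high at 2 h (green, mean only) and all windows tested (grey), with bars of 1 SD over windows. The red and blue means reach 0.496 and 0.509 at 0.4 h and part at 6 h (0.470 and 0.295), the green mean is 0.485 at 2 h, and all windows tested stay between 0.249 and 0.343.

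The steps differed in size between intervals. The conditions on difference and p were met by 21.3% of all windows valued at both stages from 0 to 0.4 h, by 30.3% from 0.4 to 1 h, by 15.3% from 1 to 2 h, by 18.9% from 2 to 4 h and by 11.8% from 4 to 6 h, and by 0.265% in all 5. These shares are the background of the choice and say nothing about the windows themselves. The median size of the difference in the chosen windows was 0.182, 0.146, 0.106, 0.142 and 0.110 in the 5 intervals in order, against 0.0614, 0.0689, 0.0418, 0.0531 and 0.0389 over all windows tested. The first step, from the fertilized egg to the 1-cell embryo, was the largest of the 5 in the chosen windows, and the step from 1 to 2 h the smallest. It was upward in 1031 of the 1169 windows (88.2%, against 72.2% of all windows tested), and the next was downward in 1048 windows. The steps from 1 to 2 and from 2 to 4 h were downward in 1037 and upward in 1053 windows. Only the last interval split the windows, with 676 upward (57.8%) and 493 downward from 4 to 6 h. Of all windows tested, 20.04% went upward from 0.4 to 1 h, 30.3% from 1 to 2 h and 75.6% from 2 to 4 h. From 4 to 6 h 47.2% of them did so. All windows tested thus moved mostly the same ways up to 4 h and were split after it, so neither is particular to the chosen windows.

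Of the possible orders of direction, a pair held most of the windows. The order up, down, down, up, up was found in 576 windows (49.3%, against 19.8% of all windows tested) and up, down, down, up, down in 366 (31.3%, against 20.2%). Among windows variable in exactly 4 intervals the shares were 39.6% and 37.2%, so the weight of these orders was not particular to the chosen windows. Both orders open after fertilization, close to 2 h and open again by 4 h, and they part only between sphere and shield. Windows of the first order averaged 0.288, 0.496, 0.336, 0.224, 0.354 and 0.470 from 0 to 6 h, and windows of the second 0.326, 0.509, 0.345, 0.242, 0.417 and 0.295. No other order reached 50 windows. The third in number was down, up, down, up, down with 45 windows (3.85%, against 4.02% of all windows tested). Since a window that moves with its stage passes the limit more easily, the choice favours the direction common to all transcripts. After the median difference of each interval was subtracted, 453 windows met the conditions in all 5 intervals, of which 190 were among the 1169. Relative to the median, 38.6% of the 453 rose from 0 to 0.4 h and 53.0% from 0.4 to 1 h, beside 88.2% and 10.4% of the 1169 as deposited. From 1 to 2, 2 to 4 and 4 to 6 h 56.7%, 44.2% and 45.3% of the 453 rose. The directions above were thus not kept after centring. A minimum difference of 0.1 left 337 windows, and dropping the condition on p gave 26501.

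Single nucleotides carried the window means unevenly. A difference over 0.2 was seen in 43.5% of a window's nucleotides from 0 to 0.4 h, in 36.5% from 0.4 to 1 h, in 21.4% from 1 to 2 h, in 31.3% from 2 to 4 h and in 23.7% from 4 to 6 h. Of 11676 nucleotides valued at all 6 stages, 6489 (55.6%) moved with their window in all 5 intervals, with a median of 6 nt per window. The share of nucleotides at exactly 0 was 9.08% at 2 h in these windows and 15.0% in all windows tested, and the share at exactly 1 reached 9.32% at 0.4 h in these windows, against 4.37%. A nucleotide at the end of the scale cannot move past it, so that levels near 0 or 1 understate a difference.

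Of the 6 windows whose smallest difference was largest, 4 lay outside the 2 commonest orders. The leading window was nucleotides 7411 to 7420 of trim71 (NM_001301331, 7686 nt), whose product is an RNA-binding ubiquitin ligase of the LIN-41 family. Its reactivity was 0.675, 0.954, 0.659, 0.923, 0.580 and 0.930 from 0 to 6 h, up and down by turns with no step under 0.264. The whole trim71 transcript averaged 0.311, 0.359, 0.283, 0.252, 0.301 and 0.285, so that at 2 h the window was near its highest level while the transcript was at its lowest. In anp32b, for a histone-binding acidic nuclear phosphoprotein, nucleotides 1271 to 1280 of NM_212603 had 0.901, 0.656, 0.430, 0.853, 0.329 and 0.604. In ccng1, for cyclin G1, nucleotides 111 to 120 of NM_199481 had 0.745, 0.546, 0.319, 0.667, 0.283 and 0.0712. Both were high in the egg, fell away to 1 h and stood high again at 2 h, and they separated at the end, where anp32b went up and ccng1 came down to the lowest level of the 6 windows. In rrm2l, which is named after the small subunit of ribonucleotide reductase, nucleotides 1551 to 1560 of NM_131450 had 0.515, 0.745, 0.355, 0.634, 0.135 and 0.427.

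The other 2 of the 6 leading windows kept to the common orders. Nucleotides 1821 to 1830 of slc39a1 (NM_212583, 1887 nt), for a zinc transporter of the ZIP family, had 0.334, 0.754, 0.500, 0.183, 0.443 and 0.752. Nucleotides 2931 to 2940 of trip10a (NM_001007403, 2986 nt), for a Cdc42-binding adaptor of the cell cortex, had 0.339, 0.742, 0.408, 0.212, 0.545 and 0.304. Both lay within 70 nt of the 3′ end of their transcript and were nearly alike up to 4 h, and the level at 6 h parted them. The icSHAPE RPKM was low in both, 30.1 to 106 in slc39a1 and 16.3 to 42.9 in trip10a, beside 235 to 576 in the first 5 profiles of anp32b and 972 in the last.

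**Figure D2:**
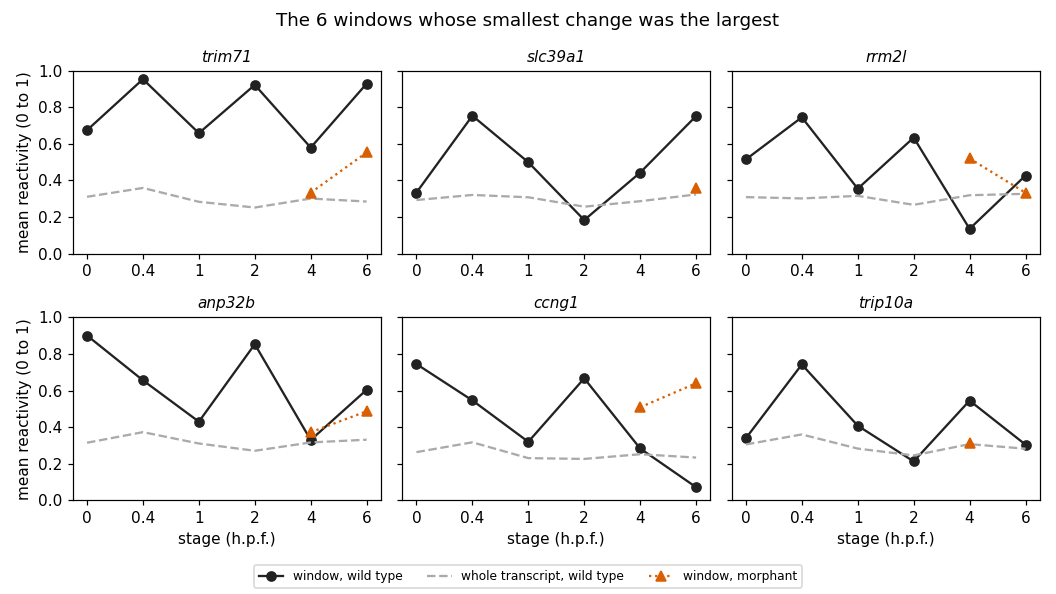
Reactivity (0 to 1) by stage (h) of the 6 windows whose smallest difference was largest, as black points, with the mean of the whole transcript as a grey dashed line and the morphant window as orange triangles. In trim71, rrm2l, anp32b and ccng1 the window is high at 2 h (0.634 to 0.923), where the transcript mean lies between 0.226 and 0.270.

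Within each common order, the windows with the largest summed differences showed how far a short stretch could swing. In smarca5, for the ATPase of ISWI chromatin remodellers, nucleotides 51 to 60 of NM_001081629 had 0.305, 0.767, 0.161, 0.0623, 0.445 and 0.692 (up, down, down, up, up). In hnrnpc, for a protein that packages nascent transcripts, nucleotides 631 to 640 of NM_213079 had 0.220, 0.706, 0.352, 0.188, 0.696 and 0.587 (up, down, down, up, down). In prpf38b, for a splicing factor, nucleotides 21 to 30 of NM_213489 had 0.412, 0.894, 0.379, 0.245, 0.510 and 0.348. All 3 passed from under 0.42 in the egg to over 0.70 in the 1-cell embryo, and were under 0.25 at 2 h. The order down, up, down, up, down ran the other way at the start. In ctsc, for the lysosomal protease cathepsin C, nucleotides 1791 to 1800 of NM_214722 had 0.677, 0.347, 0.688, 0.541, 0.705 and 0.529. In ruvbl1, for an AAA+ ATPase, nucleotides 1701 to 1710 of NM_173835 had 0.526, 0.367, 0.609, 0.420, 0.664 and 0.457. These windows were at their lowest at 0.4 h, the stage at which their transcripts were at their highest, 0.351 in ctsc and 0.359 in ruvbl1.

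At the limit of the choice, windows barely differed from those left out. Nucleotides 421 to 430 of avd, for the biotin-binding protein avidin, had a smallest difference of 0.0501, nucleotides 491 to 500 of ewsr1b, for an RNA-binding protein of the FET family, 0.0502 and nucleotides 791 to 800 of capns1a, for the small calpain subunit, 0.0503. Just outside, the smallest difference was 0.050 in nucleotides 431 to 440 of NM_001002366, 0.0499 in nucleotides 561 to 570 of hmgb2a and 0.0498 in nucleotides 481 to 490 of capza1b. The window of capza1b, for an actin-capping subunit, had 0.200, 0.447, 0.213, 0.164, 0.333 and 0.473, with larger differences in its other 4 intervals than any of the 3 just inside had in their smallest. Membership of the set is therefore no sharp property of a site.

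A minority of the windows was reactive at 2 h, when most were protected. In 111 windows of 87 transcripts the step from 1 to 2 h was upward and that from 2 to 4 h downward. Their mean levels were 0.525, 0.429, 0.328, 0.485, 0.281 and 0.304 from 0 to 6 h, against 0.308, 0.486, 0.350, 0.237, 0.385 and 0.402 in the 1032 windows with the opposite steps. They started and ended differently too, highest in the egg and near their lowest at sphere and shield. By position, which the choice did not use, 32 of the 111 (28.8%) began within 200 nt of the 3′ end of the transcript, against 16.0% of the 1032 and 10.9% of all windows tested. Within 200 nt of the 5′ end lay 4 of them (3.60%, against 13.5% of the 1032). A shared direction at 2 h thus went with a place near the 3′ end more often in these counts, which rest on 87 transcripts with more than 1 window in some.

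Among the genes with windows high at 2 h were regulators of maternal mRNA. In eif4enif1, for the eIF4E-binding transport protein 4E-T of translationally silent mRNAs, nucleotides 3271 to 3280 of NM_001013538 had 0.962, 0.802, 0.475, 0.871, 0.412 and 0.609, and the adjoining 10 nt had 0.956, 0.782, 0.594, 0.827, 0.521 and 0.792. In cnot8, for a deadenylase of the CCR4-NOT complex, nucleotides 1171 to 1180 of NM_213479 had 0.427, 0.572, 0.394, 0.505, 0.358 and 0.524. The adjoining windows of eif4enif1 moved together at every stage, and the cnot8 window swung less, between 0.358 and 0.572. In kpnb1, for importin beta, nucleotides 2871 to 2880 of NM_001037702 had 0.119, 0.317, 0.0795, 0.210, 0.0717 and 0.183, a low window with the same turns. In sox11b, for a transcription factor of the SoxC group, nucleotides 2471 to 2480 of NM_131337 had 0.621, 0.463, 0.268, 0.456, 0.348 and 0.454.

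The windows with inverted opening formed another kind. Reactivity was lower at 0.4 than at 0 h, higher at 1, lower at 2 and higher at 4 h in 55 windows of 41 transcripts. Their mean levels were 0.377, 0.242, 0.404, 0.280, 0.426 and 0.323 from 0 to 6 h, while the transcripts that held them averaged 0.301, 0.318, 0.293, 0.2503, 0.304 and 0.302. In 23.6% of these windows the rest of the transcript was also lower at 0.4 than at 0 h. Of the 55, 6 lay in rrm2l and 7 in 3 genes of cytosolic ribosomal proteins. In rpl24, nucleotides 351 to 360 of NM_173235 had 0.497, 0.267, 0.623, 0.356, 0.473 and 0.550, and nucleotides 251 to 260 had 0.242, 0.132, 0.280, 0.142, 0.274 and 0.366. In rpl29, nucleotides 81 to 90 of NM_001243178 had 0.367, 0.179, 0.444, 0.351, 0.545 and 0.483. In rps3a, nucleotides 841 to 850 of NM_200059 had 0.828, 0.677, 0.836, 0.533, 0.832 and 0.729. These genes encode structural proteins of the ribosome. From 0 to 0.4 h the whole rpl24 transcript went from 0.272 to 0.167 and the whole rpl29 transcript from 0.267 to 0.134, so that their windows moved with the RNA, while rps3a as a whole went from 0.195 to 0.204. Cyclin B transcripts held the same kind, at nucleotides 1451 to 1460 of ccnb1 (0.357, 0.258, 0.369, 0.245, 0.399 and 0.314) and 1441 to 1450 of ccnb2 (0.237, 0.141, 0.303, 0.226, 0.299 and 0.198).

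Position along the transcript was not uniform. The share of tested windows variable in all 5 intervals was 0.466% in the first of 10 equal parts of the transcript and 0.402% in the last, against 0.181% in the fourth, where it was lowest. Within 200 nt of the 5′ end lay 154 windows, 13.2% of them beside 7.37% of all windows tested, and within 200 nt of the 3′ end 199 windows, 17.02% beside 10.9%. Both ends were thus more densely occupied than the body. The icSHAPE RPKM moved with this, since the median at 6 h was 189 for the transcripts of windows near the 5′ end, 124 near the 3′ end and 105 elsewhere, against 78.7, 50.4 and 54.6 for all windows tested in those places, and its part in the result was not tested. Division into coding and untranslated sequence was not made here.

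**Figure D3:**
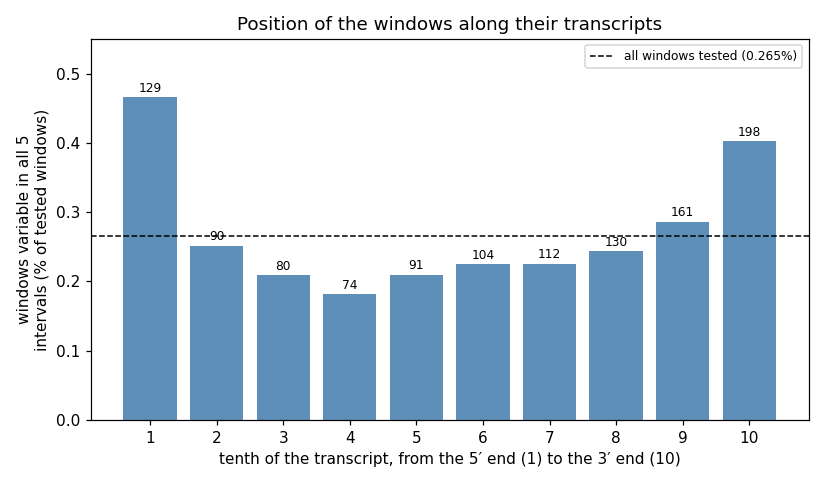
Share of tested windows (%) that were variable in all 5 intervals, in 10 equal parts of the transcript from the 5′ end (1) to the 3′ end (10), with the number of such windows above each bar and the share over all windows as a dashed line. The first and last parts stand at 0.466% and 0.402%, above the dashed line at 0.265%, and the fourth is lowest at 0.181%.

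The windows at the ends differed in their course. Near the 5′ end, mean reactivity was 0.323, 0.523, 0.343, 0.254, 0.405 and 0.455 from 0 to 6 h, and 68.2% of the windows were higher at 6 than at 4 h. Near the 3′ end it was 0.360, 0.452, 0.356, 0.286, 0.388 and 0.369, and 46.7% were higher at 6 h. The 5′ windows therefore had the larger opening after fertilization and the higher level at shield, and the 3′ windows the flatter course. The 2 commonest orders took in 85.1% of the windows near the 5′ end and 83.1% of those in the body, but 66.8% of those near the 3′ end.

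Well covered transcripts held most of the windows. The transcripts were divided into 5 groups of equal number by their lowest icSHAPE RPKM over the 6 stages. The share of tested windows variable in all 5 intervals was 0.123%, 0.101%, 0.142%, 0.178% and 0.519% from the lowest to the highest group, so that 60.1% of the windows lay in the highest one. The median RPKM of the windows' transcripts fell between 122 at 6 h and 174 at 0 h, beside 55.3 and 75.3 over all windows tested. Reads per nucleotide are not in the profiles, and how far depth decides which windows pass was not tested.

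The windows stood out from the transcripts that held them. Beyond the difference of the rest of the transcript, taken in the direction of the window, the median excess was 0.141 from 0 to 0.4 h, 0.0918 from 0.4 to 1 h, 0.0775 from 1 to 2 h, 0.0971 from 2 to 4 h and 0.105 from 4 to 6 h. The rest of the transcript moved the same way as the window in 88.5%, 90.3%, 89.0%, 90.5% and 66.0% of cases. In the first 4 intervals a window therefore amplified the course of its transcript. In the last one the median signed difference of the rest of the transcript was -0.00035, with transcripts on both sides of it. The whole eef2b transcript, for example, went from 0.257 to 0.285 and that of cnot3b from 0.306 to 0.285. The size of this excess follows from the choice and is a description.

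Flanking windows shared the movement over a short distance. Of windows directly upstream, 93.1% moved the same way from 0 to 0.4 h and 80.5% from 4 to 6 h, and of windows directly downstream 91.0% and 80.7%. At 100 nt these shares were still 67.1% and 52.4% upstream and 67.2% and 54.9% downstream, so only the excess over them was local. The median change in the direction of the chosen window from 0 to 0.4 h was 0.182 in the window, 0.111 in the 10 nt upstream and 0.108 in the 10 nt downstream, and 0.0382 and 0.0385 at a distance of 50 nt. At 100 nt it was 0.037 upstream and 0.0365 downstream, so the local part of the movement faded within about 50 nt. Of the 1132 windows directly upstream, 53 (4.68%) were themselves variable in all 5 intervals, beside 0.265% of all windows tested. In 4 or 5 intervals 18.7% were variable, where 2.24% of all windows tested were so in exactly 4. Neighbouring windows share reads and the sliding window used to scale the stops.

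**Figure D4:**
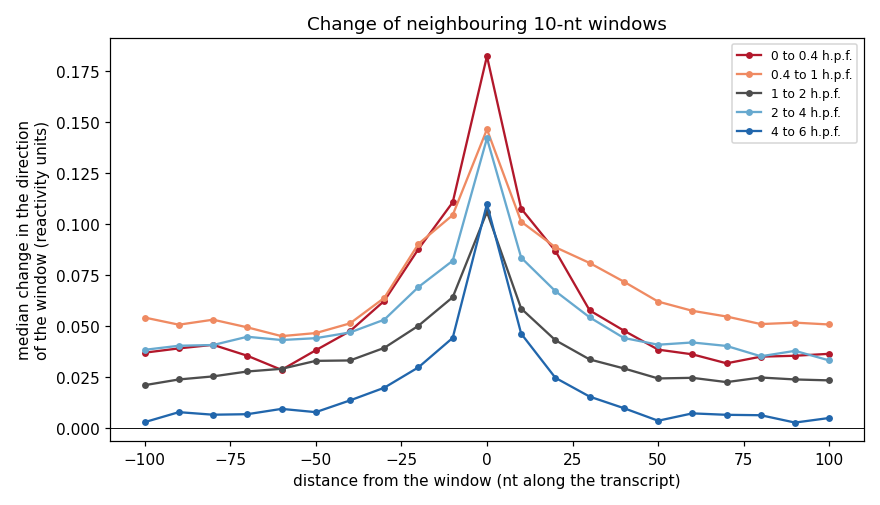
Median change in reactivity, taken in the direction of the chosen window, by distance of the window (nt) upstream (negative) and downstream (positive), with 1 line per interval between stages. From 0 to 0.4 h it falls from 0.182 in the window to 0.111 and 0.108 in the adjoining windows and 0.0382 and 0.0385 at a distance of 50 nt.

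Most members had no adjoining member, and 1068 windows stood alone. There were 44 runs of 2 windows, 3 runs of 3 and 1 run of 4. The run of 4 covered nucleotides 1251 to 1290 of anp32b, all with the order down, down, up, down, up. The first of these windows had 0.593, 0.493, 0.374, 0.544, 0.3296 and 0.434 and the last 0.550, 0.359, 0.156, 0.370, 0.199 and 0.347, with the highest levels between them. A run of 3 covered nucleotides 111 to 140 of ccng1, where the window at 121 had 0.661, 0.514, 0.299, 0.533, 0.392 and 0.118 and that at 131 had 0.668, 0.412, 0.197, 0.440, 0.278 and 0.0747. A run of 3 lay at nucleotides 81 to 110 of a non-coding RefSeq isoform of cirbpb, for a cold-inducible RNA-binding protein, and 1 at 601 to 630 of NM_001351700. These are the places where more than 10 nt moved as a block at every stage.

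Most transcripts held a single window. There was 1 window in 515 of the 758 transcripts, 2 in 161, 3 in 45 and more in the rest, up to 11. By accession, 753 transcripts were RefSeq mRNAs and 5 were RefSeq non-coding RNAs, 3 of them from cirbpb and 1 each from nupr1a and zgc:158463. The annotation used here gives a type per gene, rRNA for zgc:158463, and had no match for 7 of the transcripts. In 6 genes (ap1s1, cirbpb, ddx5, hmga1a, psap and srsf3b) the windows fell in more than 1 transcript, 34 windows in 17 transcripts. Isoforms share reads, and such windows are not independent. With 1 transcript kept per gene, 1150 windows remained.

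Genes with many windows fell into those that kept the common course and those that did not. NM_001351700 had 11 windows of 186 tested, all in the 2 commonest orders. NM_001351701 had 7. The profiles of these 2 transcripts correlated with r between 0.930 and 0.951 at an offset of 100 nt over 1763 to 1765 nt, and 3 of their windows fell at the same place, so they are not independent. The 8 windows of eef2b, for translation elongation factor 2, averaged 0.216, 0.379, 0.276, 0.182, 0.269 and 0.347 and were all of the order up, down, down, up, up. The 7 windows of ccna2, for cyclin A2, had the same order, with means of 0.230, 0.399, 0.273, 0.195, 0.325 and 0.427. In both genes every window was higher at shield than at sphere. The 7 windows of hsp90ab1, for a cytosolic Hsp90 chaperone, averaged 0.218, 0.402, 0.246, 0.168, 0.292 and 0.352, with 6 higher at 6 than at 4 h, and the 7 windows of cdc25b, for a phosphatase that activates cyclin-dependent kinase, averaged 0.319, 0.540, 0.363, 0.263, 0.442 and 0.413, with 3 higher.

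Other transcripts departed from it. The 10 windows of rrm2l, of 200 tested, included none of the 2 commonest orders. In 6 of them the level at 0.4 h was lower than in the egg, as at nucleotides 891 to 900 (0.384, 0.207, 0.350, 0.280, 0.426 and 0.333), and in the other 4 it was higher, as at nucleotides 1861 to 1870 (0.453, 0.603, 0.375, 0.500, 0.0649 and 0.303). The mean of the 10 windows hid this, at 0.418, 0.395, 0.425, 0.399, 0.382 and 0.423. The windows of 1 RNA thus moved in opposite directions at the same stage. The 8 windows of hnrnpub, for an hnRNP U protein, included 4 of the common orders and averaged 0.376, 0.458, 0.384, 0.277, 0.365 and 0.408. In anp32b, 3 windows between nucleotides 641 and 720 followed the common order and the 4 at 1251 to 1290 did not.

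The rRNA zgc:158463 had 7 windows with an unusual course. Their mean levels were 0.437, 0.461, 0.310, 0.348, 0.0566 and 0.247, and the whole transcript averaged 0.205, 0.233, 0.140, 0.169, 0.0304 and 0.134. At 4 h nearly the whole RNA was unreactive, which no other gene with 7 or more windows showed. Its icSHAPE RPKM was 4439, 1939, 8087, 15022, 7015 and 10607, above the other genes with 7 or more windows at every stage. In the RNA-seq, which was polyA-selected too, it had 20941 and 22066 RPKM in controls at 4 h and 5287 and 5543 RPKM at 6 h.

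The gene lists, chosen with earlier results of these data known, put the windows in their biological setting. Such windows were found in 12 of 24 tested genes of cyclins and mitotic regulators (34 windows), 13 of 37 regulators of maternal mRNA (27 windows), 22 of 83 cytosolic ribosomal protein genes (31 windows), 6 of 13 factors of genome activation (9 windows), 4 of 16 importins and exportins (9 windows), 0 of 4 germ plasm genes and 3 of 8 genes whose structures the study drew (4 windows). Over all genes tested, 747 of 3951 (18.9%) had one. The count per gene depends on length and coverage, and per tested window the share was 1.02% in the cyclins and mitotic regulators, 0.624% in the ribosomal proteins, 0.452% in the regulators of maternal mRNA, 0.291% in the importins and exportins and 0.276% in the factors of genome activation, beside 0.265% over all. It was 0.185% in the genes the study drew and 0 of 842 windows in the germ plasm genes. The share per tested window depends on coverage too, and was 0.519% in the best covered of the 5 groups of transcripts. The part of coverage in the differences between lists was not tested.

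Of the 34 windows in cell-cycle transcripts, 21 had the order up, down, down, up, up and 10 up, down, down, up, down, together 31, beside 942 of all 1169 windows (80.6%). Of the 34, 7 each lay in ccna2 and cdc25b and 5 in plk1. In aurkb, for the Aurora B kinase of the chromosomal passenger complex, nucleotides 361 to 370 of NM_212566 had 0.667, 0.905, 0.799, 0.586, 0.749 and 0.887. In pttg1, for securin, nucleotides 51 to 60 of NM_001271474 had 0.808, 0.960, 0.823, 0.730, 0.813 and 0.618. Both were open throughout, above 0.58 at every stage, and went apart only at 6 h. In ccne1, for cyclin E1, nucleotides 31 to 40 of NM_130995 had 0.148, 0.451, 0.188, 0.0870, 0.232 and 0.362, a mostly closed site in the first 40 nt of the RNA that opened in the 1-cell embryo. In plk1, for Polo-like kinase, nucleotides 891 to 900 of NM_001003890 had 0.167, 0.377, 0.237, 0.108, 0.218 and 0.349.

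Ribosomal protein transcripts had 21 windows of the order up, down, down, up, up, 2 of the order up, down, down, up, down and the 7 with inverted opening described above. In rps24, 3 windows were of the first order, and the adjoining pair at nucleotides 11 to 20 (0.333, 0.596, 0.454, 0.282, 0.494 and 0.604) and 21 to 30 (0.101, 0.238, 0.162, 0.0964, 0.210 and 0.267) of NM_001012316 lay at the very 5′ end. In rpl38, nucleotides 31 to 40 of NM_001002486 had 0.588, 0.785, 0.648, 0.483, 0.577 and 0.693. In rpl4, nucleotides 31 to 40 of NM_213107 had 0.241, 0.413, 0.233, 0.147, 0.247 and 0.422. These 4 windows were at their lowest at 2 h. In rps10, nucleotides 31 to 40 of NM_201146 had 0.272, 0.334, 0.167, 0.231, 0.307 and 0.404, with the lowest level at 1 h. From 4 to 6 h 26 of the 31 ribosomal protein windows went up, beside 676 of all 1169 (57.8%).

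Of the 27 windows in regulators of maternal mRNA, 15 had the order up, down, down, up, up. elavl1a itself held 2. Nucleotides 1341 to 1350 of NM_131452 had 0.368, 0.493, 0.653, 0.350, 0.660 and 0.764, and nucleotides 1511 to 1520 had 0.200, 0.446, 0.300, 0.142, 0.271 and 0.382. The first opened over 2 intervals, through the 4-cell stage, and the second only to the 1-cell stage. In pabpc1a, for the poly(A)-binding protein, nucleotides 21 to 30 of NM_001031676 had 0.371, 0.569, 0.457, 0.291, 0.417 and 0.588. In hnrnpabb, for an hnRNP A/B protein, 5 windows were found, among them the adjoining ones at nucleotides 131 to 140 (0.252, 0.446, 0.352, 0.233, 0.361 and 0.452) and 141 to 150 (0.303, 0.584, 0.394, 0.302, 0.455 and 0.559) of NM_213302. In khsrp, for a KH-domain protein that binds AU-rich elements, nucleotides 2811 to 2820 of NM_001089428 had 0.359, 0.465, 0.566, 0.366, 0.698 and 0.566.

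Factors of genome activation and nuclear import gave 9 windows each. In nanog, nucleotides 1621 to 1630 of NM_001098392 had 0.450, 0.634, 0.510, 0.459, 0.583 and 0.650, and in pou5f3, nucleotides 2331 to 2340 of NM_131112 had 0.542, 0.843, 0.576, 0.415, 0.604 and 0.492. Both genes encode transcription factors that open the embryonic genome, and both windows stayed above 0.41. In brd3a, for a BET bromodomain protein, 4 windows were found, among them nucleotides 2331 to 2340 of NM_001123389 with 0.122, 0.411, 0.290, 0.0875, 0.193 and 0.290. In kpna4, for an importin alpha, nucleotides 1491 to 1500 of NM_201305 had 0.255, 0.391, 0.191, 0.121, 0.305 and 0.390 and nucleotides 2071 to 2080 had 0.331, 0.465, 0.316, 0.251, 0.342 and 0.411. In hspd1, for a mitochondrial chaperonin, nucleotides 1531 to 1540 of NM_181330 had 0.293, 0.703, 0.380, 0.159, 0.347 and 0.429. Between the 1-cell stage and 2 h this site lost most of its reactivity, more than any other window of the genes the study drew.

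The morphant profiles gave values that the choice had not used. From 4 to 6 h, the windows moved mostly downward in elavl1a morphants whichever way they had moved in wild type. Of 1084 windows valued in all 4 profiles, 212 (19.6%) went up in morphants, against 29.1% of all windows tested. Of the 1084, 475 (43.8%) moved in the wild-type direction, against 51.1% of all windows tested. By the conditions used for wild type, 420 windows were variable from 4 to 6 h in morphants (38.7%, against 17.7% of all windows valued at both stages), 23 upward and 397 downward. Over all windows tested, 6210 were variable upward in morphants and 61343 downward. The median icSHAPE RPKM of the 1084 windows' transcripts in morphants at 6 h was 134, beside 69.3 over all windows tested, and its part in this share was not tested. In the 645 windows that were higher at 6 h in wild type, the median change was 0.105 in wild type and -0.0806 in morphants, and 19.4% went up. In the 439 windows that were lower, it was -0.110 and -0.0729, and 19.8% went up. At 6 h the means of these groups were 0.467 and 0.288 in wild type, a gap fixed by the split on the wild-type direction, and 0.278 and 0.313 in morphants.

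The whole morphant profile was lower at 6 h too. The median change of all windows from 4 to 6 h was -0.0016 in wild type and -0.038 in morphants. After subtraction of these medians, 274 windows were variable in morphants in place of 420, and 45.5% moved in the wild-type direction in place of 43.8%. Among other windows variable from 4 to 6 h in wild type, 31.0% of those upward and 29.3% of those downward went up in morphants, and 22.1% of the 46377 were variable there. Across the 1084 windows the wild-type and morphant changes had r = -0.02, as a description over windows that share 4 profiles. With 1 pool per genotype and hour, a difference between pools and one between genotypes cannot be told apart.

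**Figure D5:**
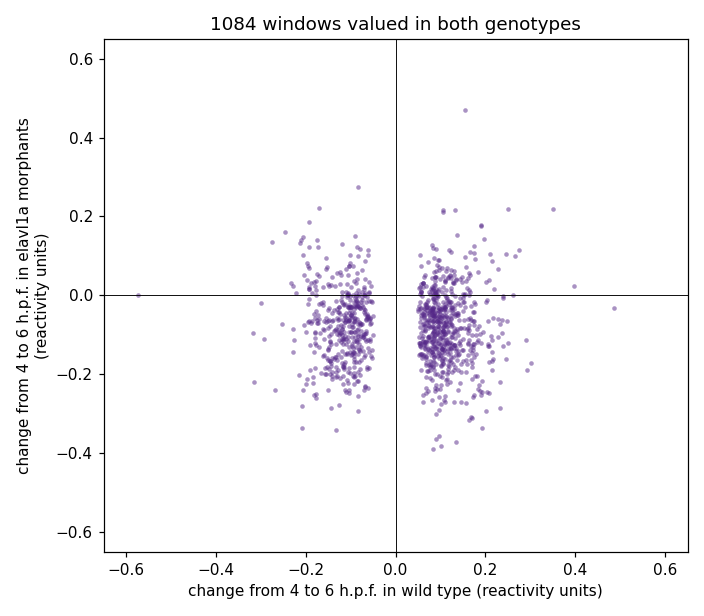
Change in reactivity from 4 to 6 h in wild type (x axis) and in elavl1a morphants (y axis) for the 1084 windows valued in all 4 profiles, 1 point per window. The gap along the x axis is the limit of 0.05 used in the choice, and most points lie under 0 on the y axis, 19.6% above it.

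At a given hour, the mean over the windows lay close to wild type in morphants at 4 h and stood lower at 6 h. The mean over 1145 windows at 4 h was 0.376 in wild type and 0.372 in morphants, and over 1098 windows at 6 h 0.394 and 0.293. By the same conditions, 330 windows (28.8%, against 14.9% of all windows valued in both) differed at 4 h, 151 higher and 179 lower in morphants, and the levels in the 2 profiles had r = 0.69 over the windows, beside 0.84 over all windows tested, as a description. At 6 h 621 differed (56.6%, against 21.7%), of which 533 were lower in morphants. The choice used the wild-type profiles at both hours, and windows picked for high or low wild-type values tend to differ more from any other profile, so these shares cannot be read against the background as an effect of the knockdown. Set beside each wild-type stage, the morphants at 6 h were nearest to 0 h (median absolute difference 0.0666) and 2 h (0.0698), and farther from 6 h (0.147) and 0.4 h (0.217). Over all windows tested the nearest stage was 2 h, at 0.0554, and 0 h stood at 0.0639. The wild-type levels in the distances of the chosen windows are those the choice used. Over all windows tested, morphants at 6 h were lower too, with a median difference of -0.0349 from wild type at 6 h. Nothing is therefore read from which stage was nearest.

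The windows high at 2 h went up in morphants more often in these counts. Of the 97 valued in morphants, 57 (58.8%) went up from 4 to 6 h, against 151 of 965 (15.6%) of those with the opposite steps. Over these 97 windows the mean was 0.265 at 4 h and 0.291 at 6 h in wild type, and 0.365 and then 0.381 in morphants. Over the 965 it was 0.383 and 0.404 in wild type, and 0.370 and then 0.282 in morphants. Both groups were split by the wild-type step from 2 to 4 h, so that a low or high wild-type level at 4 h was fixed by the split, and nothing is read from the gap between the genotypes at that hour. The direction in morphants from 4 to 6 h was not used in the split. Morphant levels were related to the wild-type levels that the split used, with r = 0.57 at 4 h over 106 of the windows high at 2 h. The part of the split in these counts was not tested. Windows with inverted opening, which are part of the group with the opposite steps, went up in 25 of 48 cases.

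Single windows showed these shifts. The trim71 window had 0.333 and 0.553 in morphants, where wild type had 0.580 and 0.930. The ccng1 window at nucleotides 111 to 120 had 0.508 and 0.640 in morphants against 0.283 and 0.0712 in wild type, upward where wild type went down, and the windows at 121 and 131 did the same, with 0.545 and 0.680 and with 0.538 and 0.590. The rrm2l window had 0.520 and 0.333 against 0.135 and 0.427. The 3 adjoining windows of ccng1 were thus more reactive in morphants than in wild type at both hours. Their wild-type levels were used in the choice, so nothing is read from this gap. The largest morphant changes were a rise from 0.402 to 0.871 in nucleotides 2081 to 2090 of kdelr2a, for a receptor that returns proteins to the endoplasmic reticulum, and from 0.334 to 0.609 in nucleotides 2731 to 2740 of zc3h11a, for a zinc finger protein of mRNA export. The largest falls were from 0.632 to 0.242 in nucleotides 2781 to 2790 of si:ch211-198a12.6 and from 0.843 to 0.461 in nucleotides 2271 to 2280 of caprin1b, for an RNA-binding protein of stress granules. All 4 met the conditions for a variable window in morphants. In wild type the kdelr2a window was 0.735 and 0.890 and the caprin1b window 0.744 and 0.844 at these hours, so kdelr2a moved the same way in both genotypes and caprin1b in opposite ways.

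The transcripts that held the windows were abundant. Of the 758, 743 were tested in the RNA-seq. Their median level in the control libraries was 119 and 118 RPKM at 2 h, 111 and 111 RPKM at 4 h and 87.5 and 87.0 RPKM at 6 h, against 21.7 and 21.5 RPKM, 17.6 and 17.5 RPKM and 10.9 and 10.9 RPKM over all transcripts tested. Only transcripts with an icSHAPE profile could hold a window, and those with tested windows but none of the chosen ones stood at 56.9 and 56.7 RPKM, 45.99 and 45.64 RPKM and 29.9 and 30.1 RPKM. The labels do not say whether the 2 libraries of a group came from separate clutches, so that p-values measure the spread between these libraries only.

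Nearly all of these transcripts changed in RNA level, as did transcripts in general. By edgeR's quasi-likelihood test with Benjamini-Hochberg adjustment over 9945 transcripts, 662 of the 743 (89.1%, against 83.3% of all) changed from 2 to 4 h in controls, 325 up and 337 down. From 4 to 6 h 704 (94.8%, against 93.1%) changed, 278 up and 426 down, with a median log2 change of -0.28 beside -0.64 over all transcripts. The direction of these counts depended on the scaling. Under TMM scaling, which moved the median of all transcripts by 0.25 and 0.57 on the log2 scale in these comparisons, 485 rose and 205 fell from 2 to 4 h, and 441 rose and 272 fell from 4 to 6 h. Between morphants and controls, 565 (76.0%, against 62.5%) differed at 4 h, with 348 higher in morphants, and 673 (90.6%, against 79.6%) at 6 h, with 364 higher. Under TMM scaling 237 of 561 and 328 of 673 were higher. By library totals, 39.5% of all transcripts were higher and 22.9% lower in morphants at 4 h, and 40.6% and 39.0% at 6 h. Among the 3201 other transcripts with tested windows, 86.6% changed from 2 to 4 h, 94.4% from 4 to 6 h, and 69.2% and 88.0% differed between genotypes at 4 and 6 h. The transcripts with such windows were more abundant, and the part of abundance in these shares was not tested.

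Windows that opened from 4 to 6 h lay in RNAs that rose by library totals more often than windows that closed. The 651 upward windows with a tested transcript had a median RNA change of 0.14 on the log2 scale, and 51.9% lay in transcripts whose RNA rose. The 484 downward windows had a median of -0.36, and 30.0% lay in such transcripts. The difference was not particular to these windows, since other windows variable in that interval gave -0.02 and 45.9% upward, and -0.41 and 30.6% downward. Over all windows tested the median was -0.29, and 34.5% lay in transcripts whose RNA rose. TMM scaling moved the RNA changes of all transcripts by a median of 0.57 in this interval, so the signs of these medians rest on library totals. Windows of 1 transcript share its RNA change, and reads rise with RNA level, whose part in this relation was not tested.

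Named transcripts gave the range of the RNA changes. nanog RNA stood at 884 and 877 RPKM in controls at 4 h and at 52.3 and 51.9 RPKM at 6 h, a log2 change of -4.13 ± 0.02 (SE) (adjusted p = 4.59e-31, edgeR). ccna1, the maternal cyclin A1, went from 1010 and 1020 RPKM to 65.7 and 64.6 RPKM, a log2 change of -4.00 ± 0.02 (adjusted p = 1.94e-31). zgc:173816 went from 234 and 238 RPKM to 8.68 and 7.83 RPKM, a log2 change of -4.98 ± 0.04, after standing at 0.993 and 1.15 RPKM at 2 h. All 3 stood far lower at the shield stage, where nanog and ccna1 still stood above the median of 10.9 RPKM over all transcripts tested. As the largest falls were picked, the separation of their libraries between the hours followed from the choice. In the opposite direction pfn1, for the actin-binding protein profilin, rose from 305 and 303 RPKM to 1406 and 1387 RPKM, by 2.19 ± 0.02. urahb, a homologue of hydroxyisourate hydrolase, rose from 3.25 and 3.38 RPKM to 15.5 and 15.8 RPKM, by 2.40 ± 0.12. An isoform of hmga1a, for an architectural chromatin protein, rose from 0.440 and 0.396 RPKM to 2.65 and 2.35 RPKM, by 2.60 ± 0.21, on the few reads that are unique to it among isoforms.

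At 6 h the largest differences between genotypes were in prcc, cat and ctnnb2 upward and in rpl29, zgc:66388 and urahb downward. prcc, for a splicing-associated protein, stood at 7.97 and 7.59 RPKM in controls and at 42.9 and 44.6 RPKM in morphants, higher by 2.63 ± 0.07 on the log2 scale. ctnnb2, for a beta-catenin, had 72.2 and 75.3 RPKM against 341 and 344 RPKM, higher by 2.24 ± 0.03, and it held 4 windows. cat, for catalase, had 11.7 and 12.3 RPKM against 55.1 and 55.6 RPKM, higher by 2.31 ± 0.03, having fallen in controls from 38.4 and 37.8 RPKM at 4 h. These 3 were picked as the largest rises past the threshold, so the separation of their libraries followed from the choice. Lower in morphants were rpl29, with 142 and 131 RPKM in controls against 32.4 and 32.2 RPKM (-2.10 ± 0.08), zgc:66388, with 11 and 9.05 RPKM against 3.10 and 3.36 RPKM (-1.89 ± 0.28), and urahb, with 15.5 and 15.8 RPKM against 4.92 and 5.82 RPKM (-1.69 ± 0.12).

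Ribosomal protein transcripts went in 1 direction in each comparison. All 21 tested ribosomal protein transcripts with such windows rose from 2 to 4 and from 4 to 6 h in controls (median log2 change 0.95 and 0.75, beside -0.23 and -0.64 over all transcripts). In morphants 20 were lower at 4 h and all 21 at 6 h (median -0.34 and -0.96, beside 0.07 and 0.008 over all transcripts). The direction was the same under TMM scaling, with 21 of 21 in each comparison. rps24, for example, went from 504 and 516 RPKM at 4 h to 1145 and 1139 RPKM at 6 h in controls, and had 393 and 390 RPKM in morphants at 6 h. Of the 12 cyclins and mitotic regulators, 10 fell and 1 rose from 4 to 6 h in controls (median -1.13), with 9 down and 3 up under TMM scaling, and 10 were higher in morphants at 6 h (9 under TMM scaling). ccnb1 fell from 703 and 702 RPKM to 249 and 247 RPKM in controls and had 592 and 596 RPKM in morphants at 6 h. Of the 12 regulators of maternal mRNA, 6 rose and 5 fell from 4 to 6 h (9 and 3 under TMM scaling), and at 4 h 4 were higher and 2 lower in morphants, which became 1 and 9 under TMM scaling. Of the 6 factors of genome activation, 6 rose from 2 to 4 h under both scalings and 3 rose and 3 fell from 4 to 6 h (5 and 1 under TMM scaling). By library totals, 28.2% of all transcripts rose from 2 to 4 h, and 30.1% rose and 63.0% fell from 4 to 6 h. In morphants 39.5% of all transcripts were higher and 22.9% lower at 4 h, and 40.6% and 39.0% at 6 h.

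The named windows had no single relation to their RNA. trim71 RNA stood at 67.9 and 67.5 RPKM in controls at 4 h and 64.3 and 64.1 RPKM at 6 h, while its window went from 0.580 to 0.930. anp32b RNA rose from 722 and 727 RPKM to 1484 and 1506 RPKM with a window that went from 0.329 to 0.604. ccng1 RNA stood at 774 and 759 RPKM and 741 and 736 RPKM with a window that went from 0.283 to 0.0712. By library totals, large steps in reactivity were thus found beside RNA levels that moved little, in trim71 and ccng1. In anp32b such a step stood beside an RNA level that rose by 1.04 on the log2 scale. In cdc25b, with 4 of 7 windows downward, RNA fell from 269 and 269 RPKM to 129 and 128 RPKM, and in ccna2, with all 7 upward, from 545 and 545 RPKM to 294 and 292 RPKM. The size of these RNA changes rests on library totals, since TMM scaling moved the changes of all transcripts by a median of 0.57.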

How the data were processed

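The authors trimmed the icSHAPE reads, collapsed duplicates, mapped them to RefSeq transcripts with Bowtie2, combined the reverse transcription stops of replicates, scaled them in sliding windows and deposited, per nucleotide, a reactivity as a fraction from 0 to 1, with 1 RPKM value per transcript. For RNA-seq, the authors deposited uniquely mapped read counts and RPKM per transcript and library. Transcripts under 0.1 RPKM are not listed there, and their counts were set to 0. Reactivities were read at 3 decimals, and unvalued nucleotides did not enter. Windows were tested with SciPy 1.17.1 under Python 3.11.15 (NumPy 2.4.6, pandas 2.3.3, Matplotlib 3.10.9). Counts of transcripts that averaged 1 RPKM or more were tested in 1 fit over all 10 libraries, scaled by library totals, with edgeR 4.0.16 (quasi-likelihood, Benjamini-Hochberg adjusted p under 0.05) in R 4.3.3, and with DESeq2 1.42.0 as an alternative. The window choice and the edgeR fit were tested on simulated data.

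The windows, lists and tests were chosen with earlier results of these data known. Named were the 6 windows with the largest smallest difference, the 3 on each side of the 0.05 limit, the genes with the most windows, the 2 windows of largest summed difference in each of the 3 commonest orders, genes of the lists, the 3 largest RNA rises and falls from 4 to 6 h and between genotypes at 6 h, and the 2 largest morphant changes each way. Other windows of these genes, and the examples among the lists, were chosen after their values were seen. Symbols were matched for 751 of the 758 transcripts. UTR and coding regions, base composition, Elavl1a iCLIP peaks and predicted pairing were planned but not analysed here.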

Additional observations from a re-analysis of the deposited data

Results flagged for a closer look

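From 4 to 6 h, the RNA of 667 of the 743 transcripts with such windows changed differently in elavl1a morphants and controls (interaction in edgeR's quasi-likelihood test, Benjamini-Hochberg adjusted p under 0.05), against 7367 of all 9945 transcripts (74.1%). Among the 3201 other transcripts with tested windows 83.1% did so, and the part of abundance in these shares was not tested. Of the 667, 337 changed upward in morphants relative to controls and 330 downward. Of all transcripts, 35.3% changed upward and 38.8% downward. As the morphants and controls were scaled by library totals, these directions rest on that scaling.

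Among the named transcripts, the change in morphants minus that in controls was 2.202 ± 0.11 (SE, log2 scale) in prcc, 2.05 ± 0.04 in ctnnb2, 1.74 ± 0.05 in cat and 1.40 ± 0.31 in hmga1a. It was -2.18 ± 0.35 in zgc:66388, -1.91 ± 0.18 in urahb and -1.88 ± 0.11 in rpl29. In zgc:173816 it was 0.62 ± 0.06, in ccna1 -0.11 ± 0.02, in pfn1 0.10 ± 0.02 and in nanog 0.065 ± 0.03, which passed the threshold with adjusted p of 2e-08, 0.000176, 0.00152 and 0.0257 in edgeR. In these last 4 RNAs the change with the hour was far larger than its difference between genotypes. pfn1 RNA was lower in morphants at both hours, with log2 differences of -1.07 ± 0.02 at 4 h and -0.97 ± 0.02 at 6 h.

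Of the 15 named windows valued in all 4 profiles, 8 moved in opposite directions from 4 to 6 h in wild type and morphants, in rrm2l, ccng1, ewsr1b, capns1a, ctsc, zc3h11a, si:ch211-198a12.6 and caprin1b. The ctsc window hardly moved in morphants, by 0.0009. The same direction was found in 43.8% of the 1084 chosen windows valued in all 4 profiles and in 51.1% of all windows tested. The count of 8 is near these shares and is no trait of the named windows. With 1 pooled profile per genotype and hour, the difference in direction was not tested.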

How the results depend on the processing

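Of 70 alternatives, 66 left the count or share within its range and 4 moved it. A minimum difference of 0.1 left 337 windows in place of 1169, centring on the median of the interval 453, and dropping the condition on p 26501, while 10 of 10 valued nucleotides, windows counted from nucleotide 6, an exact sign-flip permutation p and well valued transcripts gave 1078 to 1224. In morphants, centring gave 274 variable windows in place of 420. Leaving out each RNA-seq library in turn, the changed transcripts with such windows numbered 642 to 664 from 2 to 4 h, 694 to 706 from 4 to 6 h, 509 to 567 between genotypes at 4 h and 659 to 674 at 6 h, with a lone library assumed to vary like the other groups. Same-numbered libraries did not deviate together (r from -0.03 to 0.06 over 10 pairs of groups), which gave no sign of pairing by number. The deviations also hold the noise of each library, so this check cannot exclude pairing. With the replicate block the numbers were 668, 707, 573 and 677. The direction of single transcripts turned with the scaling. Of the transcripts called under both library totals and TMM, 82 of 612 from 2 to 4 h and 124 of 674 from 4 to 6 h fell under the first and rose under the second, 2 of 456 at 4 h went from higher to lower in morphants, and 0 of 637 turned at 6 h. From 2 to 4 h 49.1% of the called transcripts rose under library totals and 70.3% under TMM, from 4 to 6 h 39.5% and 61.9%, and 61.6% and 42.2% were higher in morphants at 4 h. The alternatives for regions, composition, iCLIP peaks and predicted pairing were not run. In place of matching isoforms by sequence, 1 transcript was kept per gene, an alternative chosen after seeing the data (1150 windows, of which 43.9% of those valued moved in the wild-type direction in morphants). Reads per nucleotide are unknown, which limits the precision of each reactivity.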
